A study of Mus musculus with 4 samples.

Results

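The imprinted growth genes *Dlk1*, *Meg3*, *H19*, *Mest*, *Peg3*, *Plagl1*, *Cdkn1c*, *Grb10* and *Ndn* were followed by RNA-Seq in brown preadipocytes with and without the histone methyltransferase MLL4. They are 9 genes of the 22464 gene symbols matched in the deposited tables, and were picked by name with earlier results of these data known. Where a gene had several RefSeq transcripts, it is represented by the one that drew the largest number of reads over all 4 libraries. All cells derived from interscapular brown fat of E18.5 C57BL/6J mouse embryos, were immortalized with SV40 large T antigen, and carried *Mll3*-/- and *Mll4* f/f alleles. Ad-GFP cells received an adenovirus for green fluorescent protein and lacked MLL3 alone, although their labels call them wild type. Ad-Cre cells received an adenovirus for Cre, the recombinase that cuts out exons between the loxP sites of *Mll4*, and are labelled as lacking MLL3 and MLL4. Each was sampled after growth to confluence (day 0) and after 2 days in an adipogenic medium with insulin, the thyroid hormone T3, indomethacin, dexamethasone and IBMX (day 2). There was 1 library for each of the 4 conditions, so no difference between conditions could be tested. The 95% intervals given here are exact binomial limits on the read ratio, cover counting error only, and compare these libraries rather than the conditions. Values given 4 at a time are in the order Ad-GFP day 0, Ad-GFP day 2, Ad-Cre day 0 and Ad-Cre day 2.

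Imprinted genes are transcribed from the maternal or the paternal chromosome alone, according to methylation set in the germ line, and many of them act on fetal growth. *Dlk1*, a paternally expressed transmembrane protein also called Pref-1, is the classic marker of preadipocytes and its shed ectodomain inhibits adipogenesis. It shares its imprinted cluster with the maternally expressed non-coding RNA *Meg3*. *H19* is a maternally expressed non-coding RNA beside *Igf2*, *Cdkn1c* encodes the cyclin-dependent kinase inhibitor p57, and *Plagl1* (Zac1) encodes a zinc-finger factor known to bind at several other imprinted genes. *Mest*, a hydrolase-fold protein, is a known marker of fat expansion in mice, *Peg3* encodes a large zinc-finger protein, *Ndn* encodes the MAGE-family protein necdin, and *Grb10* encodes an adaptor that dampens insulin and IGF receptor signalling. In bulk RNA, more cells that express a gene and more RNA per cell cannot be told apart, and the deposited tables do not separate the parental alleles.

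Promoter windows are printed for pairs of genes that were each other's nearest among the 9 members, *Dlk1* with *Peg3* and *Meg3* with *Ndn*. The pair that ran closest, *H19* and *Cdkn1c*, had no promoter in the reference table. Each window runs from 250 bases before to 50 after the transcription start, 5′ to 3′ on the strand of the gene. The letters are those of RefSeq on assembly GRCm38.p6, and each was placed on NCBI37/mm9 by its single exact match. The *Dlk1* window lies at chr12:110690783-110691082 on the plus strand and the *Meg3* window, the upstream of a pair in the reference table, at chr12:110778956-110779255 on the plus strand. The *Peg3* window lies at chr7:6683081-6683380 on the minus strand and the *Ndn* window at chr7:69492913-69493212 on the plus strand. Capitals mark the matches to 3 motifs searched on both strands. These were GGGGCCCC, which PLAGL1 is known to bind, ACANNNTGT for the glucocorticoid receptor, which dexamethasone activates, and TTNNGCAAT for C/EBP factors. Of 32851 mouse promoters of 300 bases, 1.08% held the first, 6.85% the second and 2.18% the third. A match is a description of the letters and not a binding site.
*Dlk1*: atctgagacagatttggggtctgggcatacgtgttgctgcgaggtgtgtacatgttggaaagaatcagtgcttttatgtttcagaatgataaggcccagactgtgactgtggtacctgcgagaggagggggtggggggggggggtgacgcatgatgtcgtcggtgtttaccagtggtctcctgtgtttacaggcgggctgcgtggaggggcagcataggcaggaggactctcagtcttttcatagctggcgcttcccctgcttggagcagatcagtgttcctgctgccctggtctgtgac
*Peg3*: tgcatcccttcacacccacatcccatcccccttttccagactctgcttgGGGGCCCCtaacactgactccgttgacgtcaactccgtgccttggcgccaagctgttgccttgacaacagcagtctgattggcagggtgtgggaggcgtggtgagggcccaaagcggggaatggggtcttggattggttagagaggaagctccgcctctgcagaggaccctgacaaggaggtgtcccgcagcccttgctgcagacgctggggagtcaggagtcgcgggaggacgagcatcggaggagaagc
*Meg3*: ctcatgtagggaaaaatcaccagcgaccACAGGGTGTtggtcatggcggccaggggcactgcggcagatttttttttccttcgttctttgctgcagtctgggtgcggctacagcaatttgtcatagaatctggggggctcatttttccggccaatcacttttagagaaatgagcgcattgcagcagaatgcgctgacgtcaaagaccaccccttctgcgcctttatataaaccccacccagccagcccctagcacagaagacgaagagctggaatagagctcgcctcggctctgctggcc
*Ndn*: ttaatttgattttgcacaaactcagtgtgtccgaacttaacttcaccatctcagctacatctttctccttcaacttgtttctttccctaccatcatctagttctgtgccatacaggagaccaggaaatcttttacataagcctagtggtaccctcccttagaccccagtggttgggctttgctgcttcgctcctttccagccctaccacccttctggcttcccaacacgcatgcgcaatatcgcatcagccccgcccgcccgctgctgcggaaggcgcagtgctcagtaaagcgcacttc
The *Peg3* window held 1 match to GGGGCCCC and the *Meg3* window 1 match to ACANNNTGT. The *Dlk1* and *Ndn* windows held none of the 3. The windows held 9 CpG dinucleotides for *Dlk1*, 13 for *Peg3*, 13 for *Meg3* and 11 for *Ndn*, and 54.2%, 62.1%, 62.1% and 58.6% of all promoters held fewer.

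The libraries held between 15831915 and 22099995 reads on exons of 29082 transcripts. These were 87.8% of the mapped reads in Ad-Cre cells at day 2 and at least 96.1% in each other library. RPKM, the reads scaled to exon length and to the mapped reads of the library, exceeded 1 in at least 1 Ad-GFP library for 15908 transcripts, which were called expressed, and all 9 genes passed. RPKM thus sets levels of Ad-Cre cells at day 2 lower, relative to the other libraries, than the sum of counted reads as denominator would. With that sum, the log2 ratio of *H19* over time in Ad-Cre cells was 5.29 in place of 5.11. *Mll4* (*Kmt2d*), the gene targeted by Ad-Cre, had 6304, 8530, 6316 and 5595 reads, and *Mll3* (*Kmt2c*) 522, 1224, 463 and 451. A count over the whole transcript cannot show the loss of the floxed exons, so the libraries are named by their labels. Of 5 brown fat markers, *Cidea* had no read in any library, *Ucp1* had at most 1 and *Dio2* and *Ppargc1a* had at most 9. *Prdm16*, a determinant of brown fat, passed the expression threshold with 82, 424, 116 and 105 reads, and was higher at day 2 in Ad-GFP cells (log2 ratio 1.95) and lower in Ad-Cre than Ad-GFP cells at day 2 (−1.66, or −1.16 after division by the trend of ratios over exon length and GC content). *Prdm16* was the only 1 of the 5 to pass, and did so through Ad-GFP cells at day 2 alone. Its levels were 0.554, 2.14, 0.691 and 0.677 RPKM. None of the 5 skeletal muscle lineage, 5 endothelial, 4 leukocyte or 5 epithelial markers found in the tables was expressed, with summed levels of at most 1.29, 0.225, 0.240 and 0.135 RPKM per library. The threshold looked at Ad-GFP libraries alone, which leaves transcripts over 1 RPKM only with Ad-Cre out of the shares below. The muscle marker *Des* had 19, 5, 0 and 49 reads, and was at 1.26 RPKM in Ad-Cre cells at day 2.

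Transcripts at least 2.5-fold apart between libraries were counted, the cutoff of the study's methods, and the members were set beside all expressed transcripts. From day 0 to day 2 in Ad-GFP cells, 3 members were past the cutoff as higher (*H19*, *Cdkn1c*, *Mest*) and 3 as lower (*Dlk1*, *Meg3*, *Ndn*), against 8.38% and 12.6% of all expressed transcripts. Over the same time in Ad-Cre cells, 3 were higher (*H19*, *Cdkn1c*, *Plagl1*) and 0 lower, against 8.30% and 10.3%. Between Ad-Cre and Ad-GFP cells at day 0, 0 members were higher and 4 were lower (*Dlk1*, *Peg3*, *Cdkn1c*, *H19*), against 1.23% and 4.03%. At day 2, 4 were higher in Ad-Cre cells (*Meg3*, *Ndn*, *Plagl1*, *H19*) and 2 lower (*Peg3*, *Dlk1*), against 7.91% and 10.2%. The median log2 ratio of the 9 members was −0.17 in the first comparison, 0.88 in the second, −1.13 in the third and 1.27 in the fourth, where the median of all expressed transcripts was 0.13, −0.04, −0.02 and −0.19. TMM scaling moved the median of all transcripts by −0.10, 0.04, 0.04 and 0.18, to between −0.01 and 0.03. The 4 comparisons share libraries, so their values are given side by side and not as separate evidence.

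**Figure D1:**
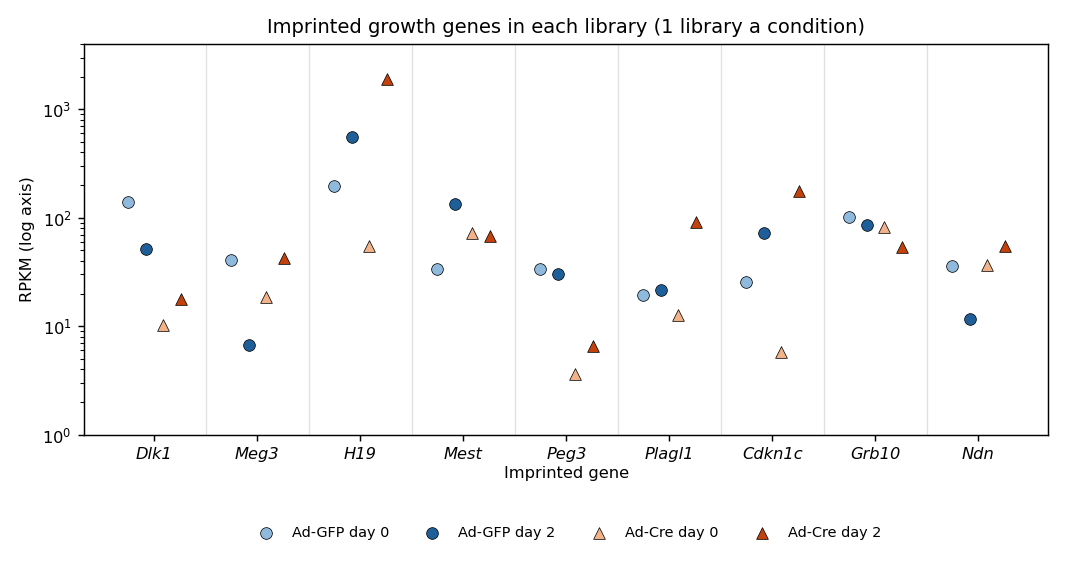
RPKM on a log axis of the 9 imprinted growth genes, with circles for Ad-GFP and triangles for Ad-Cre cells, pale at day 0 and dark at day 2, each point being 1 library. *Dlk1* and *Peg3* were lower in both Ad-Cre libraries than in both Ad-GFP libraries, whereas *H19*, *Cdkn1c* and *Plagl1* were highest in Ad-Cre cells at day 2.

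**Figure D2:**
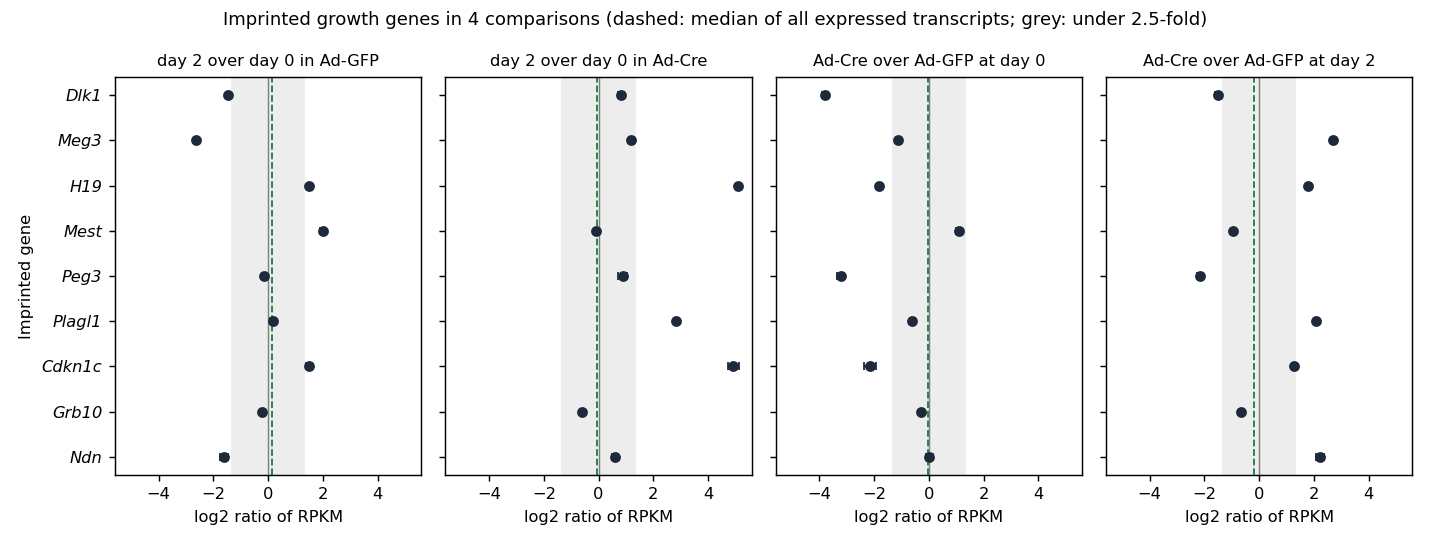
log2 ratio of RPKM of each gene in the 4 comparisons, with exact binomial 95% intervals that are often narrower than the points. The grey band covers ratios under 2.5-fold and the dashed line is the median of all expressed transcripts, and 4 genes lie left of the band at day 0 between Ad-Cre and Ad-GFP cells.

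*Dlk1* was the member that differed most between the arms at day 0. The gene (NM_010052, chromosome 12 from 110691033 to 110701546 on the plus strand of NCBI37/mm9) had 10525 and 5124 reads in the Ad-GFP libraries of day 0 and day 2 and 859 and 1403 in those of Ad-Cre. These were 141, 51.4, 10.1 and 17.9 RPKM, so that both Ad-Cre libraries lay below both Ad-GFP libraries. At day 0 the level was 13.9-fold lower in Ad-Cre cells (95% interval 13.0 to 14.9), a log2 ratio of −3.80. Over the 2 days it was 2.75-fold lower in Ad-GFP cells (log2 ratio −1.46, −1.51 to −1.41) and 1.77-fold higher in Ad-Cre cells (log2 ratio 0.82, 0.70 to 0.95). The arms thus lay closer at day 2, where *Dlk1* was 2.86-fold lower in Ad-Cre cells (log2 ratio −1.52, −1.60 to −1.43). Dividing by the trend of ratios over exon length and GC content brought this day 2 log2 ratio to −1.28 and DESeq2 size factors to −1.31, both just inside the cutoff. The 5 *Dlk1* transcripts in the tables share most of their exons, and their day 0 log2 ratios between the arms ran from −3.81 to −3.79.

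Some other preadipocyte markers were also lower in Ad-Cre cells at day 0, and the list did not follow *Dlk1* throughout. *Pdgfra*, a receptor of fat progenitors, had 8315, 1152, 1246 and 740 reads, and *Cd34* had 500, 88, 18 and 141. *Ly6a* (Sca-1) had 141, 104, 4 and 13 reads and *Zfp423*, a factor of preadipocyte commitment, 246, 621, 66 and 151. At day 0, 4 of the 7 preadipocyte markers were past the cutoff as lower in Ad-Cre cells and 0 as higher, with a median log2 ratio of −2.08. Of all expressed transcripts, 4.03% were lower and 1.23% higher there. *Pdgfrb* and *Thy1* were not among them, with log2 ratios of 0.45 and −0.69, and neither was *Ebf2*, at −1.02. At day 2 between the arms, 2 of the 7 were lower and 0 higher, against 10.2% and 7.91% of all expressed transcripts. The median log2 ratio was −0.29, and *Cd34* and *Thy1* were at 1.03 and 0.55 where *Dlk1* was at −1.52. Over time in Ad-GFP cells 3 of the 7 were lower and 0 higher, against 12.6% and 8.38% of all, whereas *Zfp423* and *Ebf2* were at 0.92 and 0.73. Over time in Ad-Cre cells 2 were higher and 2 lower, against 8.30% and 10.3%, with a median log2 ratio of 1.21. *Cd34* and *Ly6a*, the latter with few reads, were higher (3.08 and 1.81), and *Pdgfrb* and *Thy1* lower (−1.56 and −1.61). The summed level of the 7 markers was 492, 116, 322 and 125 RPKM, and none of them was at 0 in any library. Their part in the differences of *Dlk1* and *Peg3* was not tested.

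*Meg3* lies 77.7 kb downstream of *Dlk1* on the same strand, and differed from it in Ad-Cre cells. The RNA (NR_003633, chromosome 12 from 110779211 to 110809936) had 8060 and 1741 reads in the Ad-GFP libraries and 4171 and 8763 in those of Ad-Cre. Its levels were 41.0, 6.63, 18.7 and 42.5 RPKM, lowest in Ad-GFP cells at day 2 and near equal in Ad-GFP cells at day 0 and Ad-Cre cells at day 2. In Ad-GFP cells it was 6.19-fold lower at day 2 than at day 0 (log2 ratio −2.63, −2.70 to −2.55), whereas in Ad-Cre cells it was 2.27-fold higher (log2 ratio 1.18, 1.13 to 1.24). Between the arms it was 2.19-fold lower in Ad-Cre cells at day 0 (log2 ratio −1.13, −1.19 to −1.08) and 6.42-fold higher at day 2 (log2 ratio 2.68, 2.61 to 2.76). The log2 ratio over time in Ad-Cre cells passed the cutoff with the sum of counted reads as denominator (1.36) and after division by the length and GC trend (1.85), which also raised that between the arms at day 2 to 3.41. The other transcripts, NR_027651 and NR_027652, had smaller log2 ratios over time of 0.33 and 0.67 with Ad-Cre, and ratios of −2.87 and −2.66 with Ad-GFP. Their direction was that of NR_003633 in each arm. On the opposite strand the annotated RNA *Gm17639* overlaps *Meg3* exons by 1228 bases, and whether reads were counted by strand is not given in the sources used here. Of windows of 50 bases along *Meg3*, 0.690% matched elsewhere in the genome with at most 2 mismatches.

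The maternally expressed RNAs downstream of *Meg3* were also lower at day 2 in Ad-GFP cells. *Rian*, which hosts small nucleolar RNAs, had 2335, 368, 1466 and 408 reads, or 37.9, 4.47, 21.0 and 6.32 RPKM. It was past the cutoff as lower at day 2 in both arms (log2 ratios −3.08 and −1.73), unlike *Meg3*, although division by the trend brought the Ad-Cre value to −1.25, inside the cutoff. *Mirg*, which hosts microRNAs, had 322, 48, 160 and 219 reads, with log2 ratios over time of −3.16 and 0.57 in the Ad-GFP and Ad-Cre arms, and was 2.54 log2 units higher in Ad-Cre cells at day 2 (95% interval 2.08 to 3.02). The retrotransposon-derived *Rtl1*, opposite to its maternal antisense transcripts, had 182, 30, 88 and 59 reads, and its log2 ratio over time was −3.02 with Ad-GFP and −0.46 with Ad-Cre. As the treatment of strand is not given, reads of *Rtl1* and of these antisense transcripts cannot be told apart. *Dio3*, the thyroid hormone deiodinase at the far end of the cluster, had few reads (29, 142, 5 and 18) and was higher at day 2 in Ad-GFP cells (log2 ratio 1.87), where *Meg3* was lower. At day 2 *Dio3* was lower in Ad-Cre than Ad-GFP cells (log2 ratio −2.63, −3.43 to −1.92), where *Meg3* was higher. *Begain*, upstream of *Dlk1*, had 104, 128, 72 and 201 reads, with log2 ratios over time of −0.12 and 1.59, the latter 1.18 after division by the trend. The genes of 1 cluster therefore did not share 1 pattern over the 4 libraries.

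**Figure D3:**
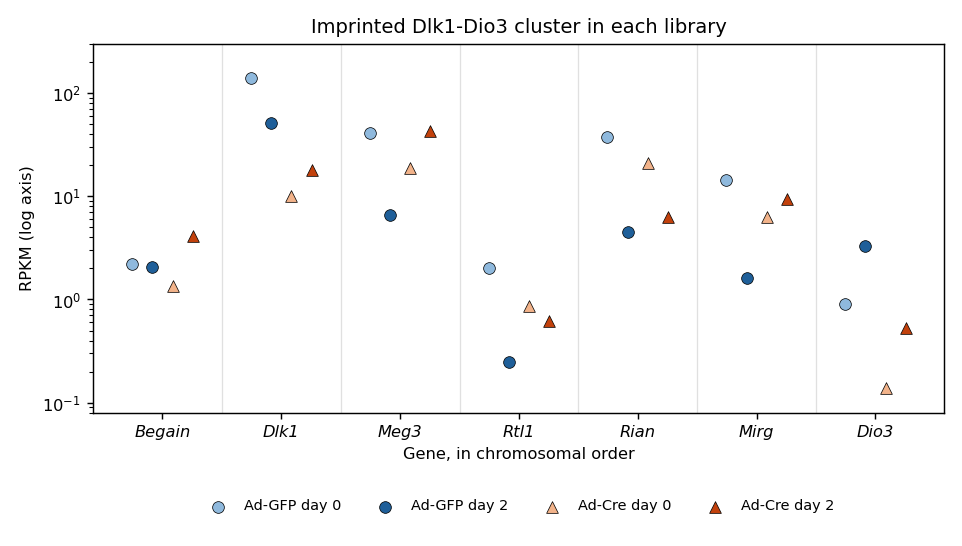
RPKM on a log axis of 7 genes of the *Dlk1*–*Dio3* cluster in chromosomal order, each point being 1 library. *Meg3*, *Rtl1*, *Rian* and *Mirg* were lowest in Ad-GFP cells at day 2, *Dlk1*, *Dio3* and *Begain* in Ad-Cre cells at day 0.

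*H19* reached the highest level of the 9 genes. Its row (NR_001592) carries no symbol in the gene table used, and was taken as *H19* because its exon length of 2615 bases equals the span of *H19* in the annotation (chromosome 7 from 149761434 to 149764048, minus strand) and because its RPKM follows that of *Mir675*, the microRNA hairpin inside exon 1 of *H19*. That span includes introns, as the annotated transcript has 5 exons and 2286 bases, so the row's length is not that of the annotated exons. Its RPKM is scaled to the 2615 bases. Over the 4 libraries the row stayed within 1.31-fold of the hairpin, and the next closest of 29081 rows came within 2.83-fold. *H19* had 8878 and 33465 reads in the Ad-GFP libraries and 2820 and 89860 in those of Ad-Cre, or 197, 557, 55.3 and 1906 RPKM. The Ad-Cre libraries thus held both the lowest and the highest level. Over the 2 days it was 2.82-fold higher in Ad-GFP cells (95% interval 2.75 to 2.89) and 34.5-fold higher in Ad-Cre cells (33.2 to 35.8), a log2 ratio of 5.11. Between the arms it was 3.57-fold lower in Ad-Cre cells at day 0 (log2 ratio −1.84) and 3.42-fold higher at day 2 (log2 ratio 1.78). Of the 9 genes, *H19* had the largest change over time in Ad-Cre cells.

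The *Mir675* hairpin had 279, 1274, 119 and 3262 reads over its 84 bases in the same order, which are reads of the long precursor RNA as far as an mRNA library counts them, and not a measure of mature microRNA. Its log2 ratios were 1.77 and 4.89 over time in the Ad-GFP and Ad-Cre arms and −1.41 and 1.71 between the arms at day 0 and day 2. The mature products, as RefSeq gives them, are printed with the seed (bases 2 to 8) in capitals because *H19* is their primary transcript.
mmu-miR-675-5p: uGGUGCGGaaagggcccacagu
mmu-miR-675-3p: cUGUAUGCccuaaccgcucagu
Their seeds differ. The hairpins within other members gave few reads, 15, 3, 4 and 5 for *Mir770* in exon 5 of *Meg3*, 132, 35, 93 and 105 for *Mir1906-1* and at most 1 for *Mir335* in *Mest*.

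*Igf2*, the fetal growth factor 72.6 kb from *H19* and expressed from the other parental chromosome, was also higher at day 2 in both arms. It had 1320, 3726, 1636 and 8207 reads, and its level reached 40.1 RPKM with Ad-GFP and 113 with Ad-Cre at day 2. Its log2 ratio over time was 1.08 (0.99 to 1.17) with Ad-GFP and 2.44 (2.36 to 2.52) with Ad-Cre. At day 0 the arms were close for *Igf2* (log2 ratio 0.13, 0.02 to 0.23), where *H19* was lower in Ad-Cre cells, and at day 2 both were higher in Ad-Cre cells (log2 ratio of *Igf2* 1.49, 1.43 to 1.55). *Ins2*, further along, had no read in any library.

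*Cdkn1c*, whose product p57 arrests the cell cycle, ran closest to *H19* over the 4 libraries. It is NM_001161624 on chromosome 7 from 150644255 to 150646955, minus strand, in an imprinted domain of its own next to that of *H19*. It had 861 and 3253 reads in the Ad-GFP libraries and 219 and 6171 in those of Ad-Cre, or 25.8, 72.9, 5.78 and 176 RPKM. As for *H19*, the Ad-Cre libraries held the lowest and the highest level. *Cdkn1c* was 2.83-fold higher at day 2 in Ad-GFP cells (95% interval 2.62 to 3.05) and 30.5-fold higher in Ad-Cre cells (26.6 to 35.1). It was 4.46-fold lower in Ad-Cre cells at day 0 (log2 ratio −2.16, −2.38 to −1.94). At day 2 it was 2.42-fold higher in Ad-Cre cells (log2 ratio 1.27, 1.21 to 1.34), just inside the cutoff. This log2 ratio was 0.60 after division by the length and GC trend, and passed the cutoff with TMM factors (1.46), DESeq2 size factors (1.48) and the sum of counted reads as denominator (1.40).

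The neighbours of *Cdkn1c* did not share its pattern. The antisense RNA *Kcnq1ot1*, transcribed from the paternal chromosome, had 597, 1506, 714 and 1202 reads, and stayed under 1 RPKM in all 4 over its great length. *Phlda2*, *Slc22a18* and *Kcnq1* had at most 8 reads in any library. *Osbpl5*, an oxysterol-binding protein, had 1134, 348, 1266 and 383 reads and was lower at day 2 in both arms (log2 ratios −2.12 and −1.61). *Cd81*, a tetraspanin, lay between 101 and 128 RPKM throughout. *Tssc4* had 942, 1059, 984 and 2192 reads and was higher in Ad-Cre cells at day 2 (log2 ratio 1.40), a value that division by the trend lowered to 0.64.

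*Peg3* followed *Dlk1* in being lower in Ad-Cre cells at both times. It is NM_008817 on chromosome 7 from 6656603 to 6683132, minus strand. It had 3835 and 4566 reads in the Ad-GFP libraries and 464 and 791 in those of Ad-Cre, or 33.7, 30.0, 3.59 and 6.62 RPKM. The Ad-GFP libraries lay close together and both Ad-Cre libraries far below them. At day 0 it was 9.38-fold lower in Ad-Cre cells (95% interval 8.51 to 10.3, log2 ratio −3.23), and at day 2 it was 4.53-fold lower (log2 ratio −2.18, −2.29 to −2.07). Divided by the trend over length and GC content, the day 2 log2 ratio became −1.27, just inside the cutoff, and that of day 0 became −3.21. Over time *Peg3* was 1.12-fold lower in Ad-GFP cells and 1.84-fold higher in Ad-Cre cells (log2 ratio 0.88, 0.72 to 1.05), and division by the trend put the latter past the cutoff at 1.55. *Usp29*, a deubiquitinase, and *Zim1*, a zinc-finger protein, belong to the same domain and had few reads. *Usp29* had 15, 54, 0 and 2, and *Zim1* 32, 46, 9 and 6, so that both had fewer reads in each Ad-Cre library than in either Ad-GFP library, as *Peg3* did, and neither passed the expression threshold.

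*Plagl1* stood out in 1 library alone. It is NM_009538 on chromosome 10 from 12810497 to 12851500, plus strand. It had 1755 and 2628 reads in the Ad-GFP libraries and 1314 and 8621 in those of Ad-Cre, or 19.4, 21.7, 12.8 and 90.9 RPKM. The first 3 libraries lay close together and the Ad-Cre library of day 2 far above them. Over time it was 7.10-fold higher in Ad-Cre cells (95% interval 6.70 to 7.53, log2 ratio 2.83) and 1.12-fold higher in Ad-GFP cells (log2 ratio 0.16), a value whose sign turned, to −0.05, when divided by the length and GC trend. At day 0 it was 1.52-fold lower in Ad-Cre cells (log2 ratio −0.60) and at day 2 it was 4.18-fold higher (log2 ratio 2.06, 2.00 to 2.13). The division raised the log2 ratio at day 2 between the arms to 2.88 and that over time in Ad-Cre cells to 3.45. Of its windows of 50 bases, 0.383% matched elsewhere in the genome.

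*Ndn* was the member that was alike in both arms at day 0 and apart at day 2. The single-exon gene (NM_010882, chromosome 7 from 69493163 to 69494814, plus strand) had 1017 and 444 reads in the Ad-GFP libraries and 1171 and 1626 in those of Ad-Cre, or 35.8, 11.7, 36.4 and 54.6 RPKM. Its day 0 log2 ratio between the arms was 0.02, with an interval (−0.10 to 0.14) that included 0, the only such interval among the ratios of the 9 members in the 4 comparisons. At day 2 it was 3.06-fold lower than at day 0 in Ad-GFP cells (log2 ratio −1.61, −1.78 to −1.45) and somewhat higher in Ad-Cre cells (log2 ratio 0.59, or 0.17 after division by the trend). At day 2 *Ndn* was 4.67-fold higher in Ad-Cre cells (log2 ratio 2.22, 2.07 to 2.38). *Peg12*, 112 kb away, had 335, 110, 429 and 241 reads and was likewise lower at day 2 in Ad-GFP cells (log2 ratio −2.03) and higher in Ad-Cre than Ad-GFP cells at day 2 (log2 ratio 1.48, or 1.25 and inside the cutoff after division by the trend). The others of the domain were not past the cutoff, *Snrpn* with 84, 102, 99 and 60 reads, *Ube3a*, a ubiquitin ligase, with 572, 1226, 764 and 833, and *Mkrn3* with between 28 and 56. *Magel2* had at most 14 reads in any library and was not expressed.

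*Mest* was the member with the opposite course. It is NM_001252292 on chromosome 6 from 30673547 to 30698457, plus strand. It had 1557 and 8245 reads in the Ad-GFP libraries and 3768 and 3290 in those of Ad-Cre, or 34.0, 135, 72.4 and 68.4 RPKM. It was 3.96-fold higher at day 2 than at day 0 in Ad-GFP cells (log2 ratio 1.99, 1.91 to 2.07), while the Ad-Cre libraries lay close together, with a log2 ratio of −0.08 (−0.15 to −0.01) that became 0.11 when divided by the trend and 0.10 with the sum of counted reads as denominator. At day 0 *Mest* was 2.13-fold higher in Ad-Cre cells (log2 ratio 1.09, 1.01 to 1.18), the only member more than 1.5-fold higher there, and at day 2 it was 1.97-fold lower (log2 ratio −0.98, or −0.44 after the division). *Copg2*, a coat protein gene on the opposite strand whose end overlaps *Mest* exons by 902 bases, had 393, 1291, 388 and 363 reads. It was 1.48 log2 units lower in Ad-Cre cells at day 2, a ratio of −0.88 after the division, and its log2 ratio over time was 1.30 in Ad-GFP cells. As the treatment of strand is not given, reads in the overlap of *Mest* and *Copg2* cannot be told apart. *Klf14*, further along, had 2 reads in 1 library and none in the others.

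*Grb10* varied least. It is NM_010345 on chromosome 11 from 11830511 to 11938686, minus strand. It had 8860, 10103, 8204 and 4943 reads, or 101, 86.4, 82.6 and 53.9 RPKM, and its highest level was 1.88-fold its lowest. The other 8 members spanned from 3.96-fold for *Mest* to 34.5-fold for *H19*. *Grb10* was not past the cutoff in any comparison, and its largest log2 ratio, −0.68 between the arms at day 2, became −0.03 when divided by the length and GC trend. *Ddc*, its imprinted neighbour, had at most 12 reads in any library.

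Of 12 genes listed for the DLK1 pathway, 11 were found and 10 were expressed. From day 0 to day 2, 3 of the 10 were past the cutoff as higher and 1 as lower with Ad-GFP, and 3 as higher and 2 as lower with Ad-Cre. Between the arms, 1 was higher and 1 lower with Ad-Cre at day 0, and 3 were higher and 1 lower at day 2. Of all expressed transcripts, 8.38% were higher and 12.6% lower over time with Ad-GFP, and 8.30% and 10.3% with Ad-Cre. Between the arms the shares were 1.23% and 4.03% at day 0, and 7.91% and 10.2% at day 2. The median log2 ratios of the 10 were −0.05, −0.41, 0.06 and 0.41 in the same order. *Sox9*, which DLK1 is known to raise on its way to blocking adipogenesis, had 688, 524, 202 and 782 reads. It was lower in Ad-Cre cells at day 0 (log2 ratio −1.95, −2.18 to −1.72), as *Dlk1* was, and higher at day 2 than at day 0 in these cells (log2 ratio 2.07). At day 2 its log2 ratio between the arms was 0.93 (0.77 to 1.09), opposite in sign to that of *Dlk1*. *Fn1*, the fibronectin that DLK1 binds, had 68531, 24099, 89151 and 15021 reads and was lower at day 2 in both arms (log2 ratios −1.93 and −2.46). *Adam17*, the protease that sheds DLK1, was past the cutoff in no comparison, with between 10.9 and 22.1 RPKM.

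DLK1 is described as an atypical ligand that restrains Notch signalling, and among the Notch genes *Hey1* differed most. This target of Notch had 81 and 130 reads in the Ad-GFP libraries and 1613 and 771 in those of Ad-Cre, or 2.14, 2.56, 37.5 and 19.4 RPKM. It was higher in Ad-Cre cells at both times (log2 ratios 4.13, 3.81 to 4.47, and 2.92, 2.65 to 3.20), so that its order between the arms was the reverse of that of *Dlk1*. *Hes1*, another target, had 467, 331, 1314 and 1186 reads and log2 ratios between the arms of 1.31 at day 0 and 2.19 at day 2. The receptor *Notch1* had 2863, 9784, 7881 and 2980 reads and crossed over, with log2 ratios between the arms of 1.28 at day 0 and −1.36 at day 2, the latter −1.23 and inside the cutoff after division by the trend. *Cebpb* and *Cebpd*, the early adipogenic factors that SOX9 is known to repress, had 2293, 12711, 1385 and 20609 reads and 764, 3000, 545 and 7699 reads. Both were higher at day 2 in Ad-GFP cells (log2 ratios 2.05 and 1.55) and in Ad-Cre cells (4.01 and 3.93). Whether any of these genes responded to *Dlk1* was not tested.

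The change over the 2 days differed between the arms for most members. Subtracting the log2 ratio of Ad-GFP cells from that of Ad-Cre cells gave a positive difference for 7 of the 9. The differences were 3.81 for *Meg3* (95% interval from counting error 3.72 to 3.91), 3.61 for *H19* (3.55 to 3.68), 3.43 for *Cdkn1c* (3.21 to 3.65), 2.66 for *Plagl1* (2.54 to 2.78), 2.28 for *Dlk1* (2.15 to 2.41), 2.20 for *Ndn* (2.01 to 2.40) and 1.05 for *Peg3* (0.87 to 1.23). It was negative for *Mest* (−2.07, −2.17 to −1.96) and *Grb10* (−0.39, −0.45 to −0.32). Division by the length and GC trend left the sign of 8 and turned that of *Grb10*, to 0.28. These differences come from the same 4 libraries as the ratios. Adipocyte markers differed with them, since all 7 were past the cutoff as higher at day 2 in both arms and as lower in Ad-Cre than Ad-GFP cells at day 2. Of all expressed transcripts, 8.38% were higher over time with Ad-GFP, 8.30% with Ad-Cre, and 10.2% lower between the arms at day 2. The summed levels were 30.4, 2005, 15.8 and 492 RPKM, with none of the 7 at 0 in any library. Some had few reads at day 0 in the Ad-GFP and Ad-Cre libraries, with 3 and 7 for *Adipoq*, 2 and 4 for *Cd36* and 18 and 18 for *Plin1*. The part of the extent of differentiation in the members' day 2 values was not tested.

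**Figure D4:**
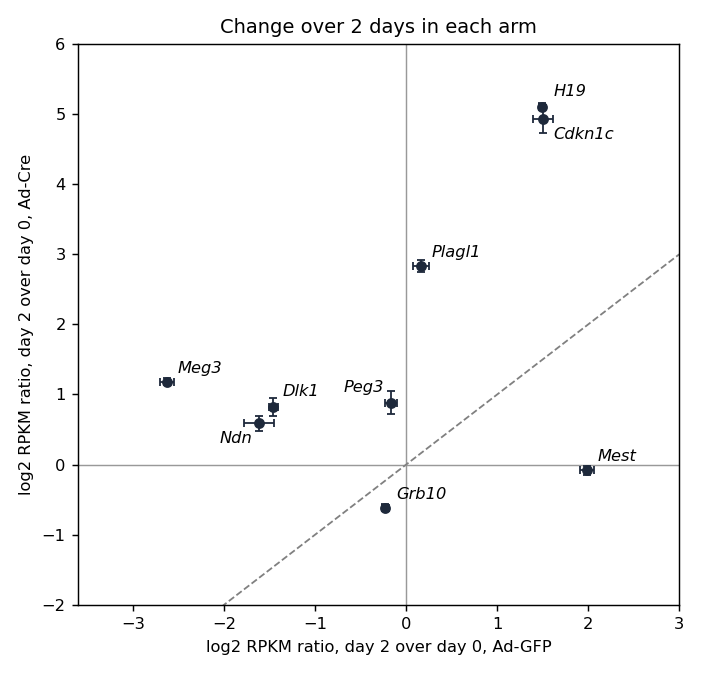
log2 ratio of RPKM at day 2 over day 0 in Ad-GFP cells (horizontal) and Ad-Cre cells (vertical) for the 9 genes, with 95% intervals from counting error and a dashed line of equal change. *Mest* and *Grb10* lie below the line and the other 7 genes above it, and *Meg3*, *Dlk1*, *Ndn* and *Peg3* were lower at day 2 in Ad-GFP and higher in Ad-Cre cells.

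Among members, levels ran most alike over the 4 libraries in pairs. With the distance between centred log2(RPKM + 0.1) profiles as the measure, the nearest pair was *H19* and *Cdkn1c* (0.43), followed by *Meg3* and *Ndn* (0.90) and by *Dlk1* and *Peg3* (0.91), and no pair of these 3 shares an imprinted domain. Within pairs the genes still differed in single comparisons. Over time in Ad-GFP cells *Dlk1* was at −1.46 and *Peg3* at −0.17, and between the arms at day 0 *Meg3* was at −1.13 and *Ndn* at 0.02. *Dlk1* and *H19* were the farthest pair (4.52). Among 11630 genes with at least 100 reads, the nearest to *Dlk1* were *Chst1* (0.34), *Apln* (0.36) and *Tspan11* (0.36). *Chst1*, a keratan sulfate sulfotransferase, had 296, 130, 26 and 35 reads, *Apln*, the secreted peptide apelin, had 297, 169, 29 and 40, and *Tspan11* had 105, 31, 1 and 5. With 4 libraries a profile has few degrees of freedom, and likeness is a description.

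A list of 54 other imprinted genes was set beside the members, of which 31 were expressed and 5 had no read in any library. From day 0 to day 2, 1 of the 31 was past the cutoff as higher and 9 as lower with Ad-GFP, and 5 as higher and 4 as lower with Ad-Cre. Between the arms, 0 were higher and 2 lower with Ad-Cre at day 0, and 7 were higher and 2 lower at day 2. Of all expressed transcripts, 8.38% were higher and 12.6% lower over time with Ad-GFP, and 8.30% and 10.3% with Ad-Cre. Between the arms the shares were 1.23% and 4.03% at day 0, and 7.91% and 10.2% at day 2. The median log2 ratios of the 31 were −0.33, 0.18, −0.13 and 0.26 in the same order. *Peg10*, a retrotransposon-derived gene, had 24599, 4181, 13914 and 8985 reads. It was 2.98 log2 units lower at day 2 in Ad-GFP cells and 1.45 higher in Ad-Cre than Ad-GFP cells at day 2 (95% interval 1.40 to 1.51). Its neighbour *Asb4* had 807, 407, 581 and 1545 reads and, like *Meg3*, was lower at day 2 in Ad-GFP cells and higher in Ad-Cre cells (log2 ratios −1.41 and 1.52).

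The amino acid transporter *Slc38a4* had 2131, 440, 1727 and 249 reads and was lower at day 2 in both arms (log2 ratios −2.69 and −2.68, or −2.96 and −2.23 after division by the trend). *Peg13*, a non-coding RNA, had 276, 137, 522 and 129 reads and was also lower at day 2 in both arms (−1.43 and −1.90). *Dcn*, which encodes the matrix proteoglycan decorin, had 93, 52, 11 and 40 reads and was lower in Ad-Cre cells at day 0 (log2 ratio −3.26, −4.31 to −2.36), as *Dlk1* and *Peg3* were.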

How the data were processed

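Libraries were mapped to conditions by their sample labels. The authors sequenced 50-base reads, aligned them to NCBI37/mm9 with the Illumina Analysis Pipeline and collected reads on exons of RefSeq transcripts. The deposited read count is a whole number per transcript without normalization. The deposited RPKM equals that count over exon length and over the library's mapped reads, as recomputing it showed. bedtools 2.16 and SICER 1.1 stand in the submitters' processing notes without a role. How strand and reads with several matches were handled is not given in the sources used here. ChIP-Seq libraries were not analysed here.

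A RefSeq gene table (assembly GRCm38.p6, used for names) named 28436 of 29082 rows and gave 8 of the 9 members by accession. GENCODE vM1 supplied coordinates, exons and GC content on NCBI37/mm9, and blastn 2.17.0 placed transcript windows of 50 bases on the genome. No test was run, since each condition has 1 library. Ratios of RPKM carry exact binomial 95% intervals of reads (scipy 1.17.1), and differences of log2 ratios intervals by normal approximation. At these depths 3 reads on 1 kb are between 0.131 and 0.174 RPKM. TMM factors (edgeR 4.0.16) and size factors (DESeq2 1.42.0, R 4.3.3) were taken from deposited counts, without their tests. Python 3.11.15 with pandas 2.3.3, numpy 2.4.6 and matplotlib 3.10.9 did the rest, and the counting was tested on simulated data.

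Besides members, the genes named are imprinted neighbours in their domains, other listed imprinted genes that were expressed, had at least 100 reads over the libraries compared and passed 2.5-fold, the 3 genes nearest to *Dlk1*, and listed pathway and marker genes, of which *Dlk2* and *Cd68* were not matched. The members and lists were chosen with earlier results of these data known. Alternatives were another RPKM denominator, TMM and DESeq2 factors, a pseudocount of 1 RPKM, cutoffs of 2-fold and 4-fold, other or no expression thresholds, the interval bound in place of the ratio, and the mean of all transcripts. Dividing ratios by their trend over exon length and GC content (medians of 20 bins, 5 rounds) and leaving out the *H19* row were added after seeing the data.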

Additional observations from a re-analysis of the deposited data

Results flagged for a closer look

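For 5 members the Ad-GFP and Ad-Cre cells moved in opposite directions from day 0 to day 2. With 1 library a condition, the difference between the arms was not tested for any of them. The log2 change in Ad-Cre cells minus that in Ad-GFP cells was 2.28 for *Dlk1* (−1.46 with Ad-GFP and 0.82 with Ad-Cre) and 3.81 for *Meg3* (−2.63 and 1.18). It was 2.20 for *Ndn* (−1.61 and 0.59) and 1.05 for *Peg3* (−0.17 and 0.88). For *Mest* it was −2.07 (1.99 and −0.08), and there the small Ad-Cre value turned to 0.11 when divided by the length and GC trend and to 0.10 with the sum of counted reads as denominator, so that the opposite directions rest on a value near 0.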

How the results depend on the processing

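Of the recomputed counts of members past the cutoff, 89 stayed within 1.5-fold of the value reported and 7 did not. A 4-fold cutoff left 0 members higher and 1 lower at day 2 in Ad-GFP cells, and 1 lower in Ad-Cre than Ad-GFP cells at day 2. A 2-fold cutoff added 1 member higher in Ad-Cre cells at day 0. DESeq2 size factors left 1 member lower in Ad-Cre cells at day 2. Division by the length and GC trend left 0 there and put 5 higher at day 2 in Ad-Cre cells. The members' log2 ratios were less stable than these counts. That division put 26 ratios outside their intervals from counting error and left 10 inside. The sum of counted reads as denominator put 18 outside and left 18 inside. TMM factors and DESeq2 size factors each put 17 outside and left 19 inside. A pseudocount of 1 RPKM put 7 outside, and the mean of all transcripts 2. The intervals thus do not cover the choice of scaling. No paired analysis was possible because each condition has 1 library, and for the same reason no library could be left out. The 100 reads asked of named genes limit what can be said of *Usp29*, *Zim1* and *Dio3*. The overlap of *Mest* with *Copg2*, of *Meg3* with *Gm17639* and of *Rtl1* with its antisense transcripts, and the row taken as *H19*, are further limits.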

Other observations

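Of 14 genes listed for the maintenance of imprints, 10 were expressed, and 0 were past the 2.5-fold cutoff between the arms. Over all expressed transcripts 1.23% were higher and 4.03% lower at day 0, and 7.91% and 10.2% at day 2, so that a count of 0 among 10 genes is close to the background. The DNA methyltransferase *Dnmt1* had 62.3 and 45.5 RPKM in the Ad-GFP libraries of day 0 and day 2 and 56.6 and 40.2 in those of Ad-Cre. The insulator protein gene *Ctcf* had 21.1, 18.9, 20.7 and 13.3 RPKM, and *Trim28*, a corepressor at imprinting control regions, had 131, 113, 128 and 148. *Tet3* and *Dnmt3a* came near the cutoff. *Tet3*, a methylcytosine dioxygenase, had a log2 ratio between the arms at day 2 of −1.28, and *Dnmt3a* one of 1.27 over time in Ad-GFP cells. *Zfp445* was further from the cutoff, at −0.94 between the arms at day 2. Division by the length and GC trend brought these values to −0.90 for *Tet3*, 1.19 for *Dnmt3a* and −0.03 for *Zfp445*.

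*Zfp57*, a zinc-finger gene needed to keep imprints, differed over time. It had 546, 57, 501 and 77 reads. Its log2 ratio over time was −3.68 (95% interval −4.10 to −3.28) with Ad-GFP and −2.59 (−2.95 to −2.24) with Ad-Cre, the 1 gene of the 10 past the cutoff in each arm. Over all expressed transcripts, 12.6% were lower over time with Ad-GFP and 10.3% with Ad-Cre, so a count of 1 among 10 is close to the background. Methylation of the imprinted regions was not measured.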
